A study of Homo sapiens with 3 samples.

Results

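Chemokines and interleukins are secreted proteins by which cells call and instruct leukocytes, and the signal of their genes was read in A549 cells, an established line from a human lung adenocarcinoma. The genes were chosen by name: a probe belonged to the set where its RefSeq accession maps to a ligand symbol of the form CXCL, CCL, XCL or CX3CL with a number, or IL with a number and at most 1 letter, receptors left out. Of 80 such symbols in RefSeq, 75 had a probe, with 89 probes in all, among 22439 genes with a RefSeq symbol on the array. *CCL4*, *CCL16*, *CCL27*, *CX3CL1* and *XCL2* had no matched probe and were not analysed here. A total of 24 genes, through 28 probes, were well above background on at least 1 array, and these 24 are described here.

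RNA came from A549 cells under 3 conditions, with 1 Agilent array of 1 colour each. The mock array holds cells given transfection reagent alone, the *miR-139-5p* array cells transfected with the precursor of the guide strand of pre-*miR-139* (the guide-strand array), and the *miR-139-3p* array cells transfected with that of the passenger strand (the passenger-strand array), at 10 nM per the study's methods. All groups share the cell line and the reagent, the mock cells received no control RNA, and the number of cultures behind an array was not given in the sources used here.

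Chemokines bind receptors on leukocytes and draw these cells along a gradient, and they are grouped as CC or CXC by the spacing of their first cysteines. CXC chemokines with the motif glutamate-leucine-arginine before that pair, among them *CXCL1*, *CXCL2*, *CXCL3*, *CXCL5* and *CXCL8*, attract neutrophils through *CXCR1* and *CXCR2*. Interleukins are a mixed group of cytokines, many of which epithelial cells release after injury or infection, and transcription factors of the NF-κB and AP-1 families act on many genes of both kinds.

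The transfected strands come from opposite arms of 1 hairpin and do not share a seed, so their mature sequences are shown, with the seed (bases 2 to 8) in capitals. Both were taken from RefSeq, assembly GRCh38.p14, where the guide strand lies at chr11:72615102-72615124 and the passenger strand at chr11:72615066-72615088, both on the minus strand.
hsa-miR-139-5p: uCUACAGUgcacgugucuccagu
hsa-miR-139-3p: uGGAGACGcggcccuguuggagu

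Values are given as the scanner's processed signal, which is the brightness of a probe after background subtraction. Fold changes are on the log2 scale after each array was divided by the 75th percentile of its own signals, which was 93.6 on the mock array, 88.9 on the guide-strand array and 81.0 on the passenger-strand array. The passenger-strand array lay on another slide than the other two, so slide and transfection cannot be told apart in that comparison. It also had the lowest local background (16, against 24 on the mock and 23 on the guide-strand array) and the largest share of spots well above background (53.1%, against 49.9% and 48.1%). With 1 array per condition there is no error between cultures and no test. The SD between spots of a probe had a median of 0.05, 0.05 and 0.06 on the log2 scale on the mock, guide-strand and passenger-strand arrays, and the SD of the fold change between probes of a gene had a median of 0.28 with the passenger strand and 0.15 with the guide strand. Over protein-coding genes measured on both arrays the median log2 fold change was -0.15 with the passenger strand (SD across genes 0.85) and 0.00 with the guide strand (SD 0.45).

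Of the 24 genes, 17 were well above background on all 3 arrays, 3 on a pair of arrays and 4 on the passenger-strand array alone. These classes were not counted over all genes. The passenger-strand array had the largest share of spots well above background (53.1%), so the last count is not read as a trait of these genes. By family they were 6 of 21 CC chemokines, 7 of 14 CXC chemokines and 11 of 39 interleukins. The dimmest value that counted as well above background was that of *IL17C*, with a signal of 5.08 on the passenger-strand array. The other 51 genes were well above background on no array. They were *XCL1*, the CC chemokines *CCL1*, *CCL3*, *CCL5*, *CCL7*, *CCL8*, *CCL11*, *CCL13*, *CCL14*, *CCL18*, *CCL20*, *CCL21*, *CCL22*, *CCL23*, *CCL25* and *CCL28*, the CXC chemokines *CXCL6*, *CXCL9*, *CXCL10*, *CXCL11*, *CXCL13*, *CXCL14* and *CXCL17*, and 28 interleukins. Those interleukins were *IL1A*, *IL1B*, *IL2*, *IL3*, *IL4*, *IL5*, *IL6*, *IL9*, *IL10*, *IL12A*, *IL12B*, *IL13*, *IL17A*, *IL17B*, *IL17F*, *IL19*, *IL20*, *IL21*, *IL22*, *IL24*, *IL25*, *IL26*, *IL31*, *IL33*, *IL34*, *IL36A*, *IL36B* and *IL36G*. The brightest of these 51 was *IL1B*, with a signal of 5.32 on the mock array that the scanner software did not call well above background.

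**Figure D1:**
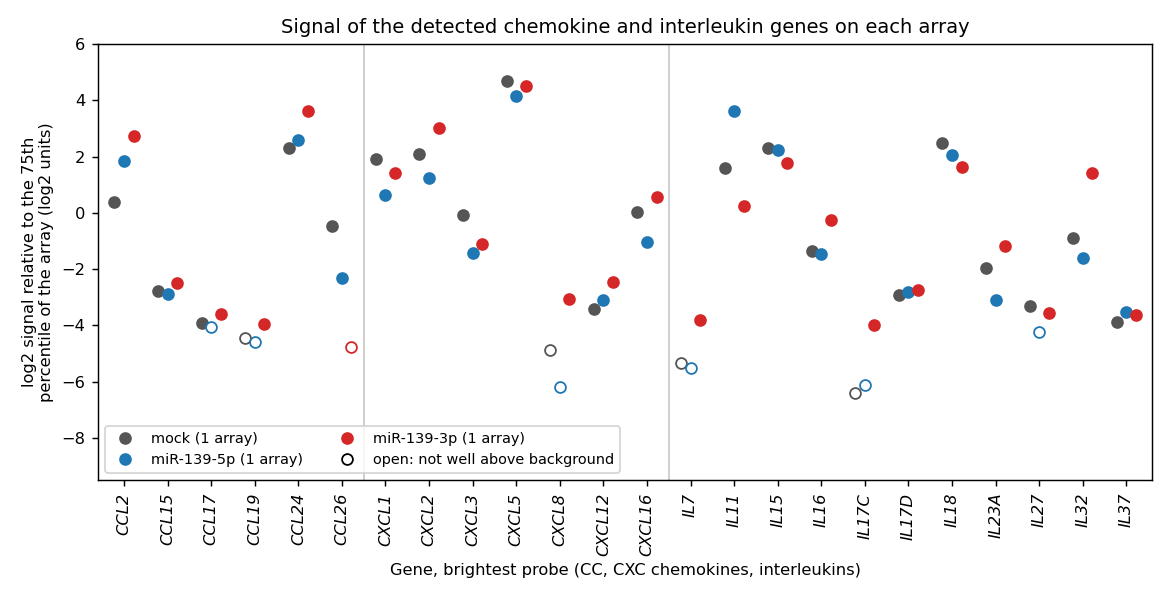
Signal of the 24 chemokine and interleukin genes on the mock (grey), *miR-139-5p* (guide strand, blue) and *miR-139-3p* (passenger strand, red) arrays, as log2 of the processed signal over the 75th percentile of the array, with a filled point where the gene was well above background and an open point where it was not. Each gene is shown by its brightest probe, and *CXCL5* is the highest on each array while *CCL19*, *CXCL8*, *IL7* and *IL17C* are filled on the passenger-strand array alone.

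With the passenger strand, 5 of the 24 genes were lower than in mock by over 0.5 on the log2 scale and 9 were higher, while 7 were measured within 0.5 and 3 (*CCL19*, *IL7* and *IL17C*) had a bound that does not reach 0.5 and leaves their size unknown. The same threshold was passed by 30.5% of protein-coding genes in the lower direction and 23.0% in the higher direction. Since genes that reached background on the passenger-strand array alone could only be higher there, the 17 genes measured on all 3 arrays are given separately: 4 were lower, 8 higher and 5 within 0.5. Of protein-coding genes with probes above background on all 3 arrays, 32.2% were lower and 19.6% higher with the passenger strand. With the guide strand, 20 genes had a value, of which 9 were lower, 2 higher and 8 measured within 0.5, and *CCL17* had a bound that does not reach 0.5. Here 12.2% of protein-coding genes were lower and 10.6% were higher. Of the 17 genes, 7 were lower with the guide strand, 2 higher and 8 within 0.5. The matching shares of protein-coding genes above background on all 3 arrays were 11.4% lower and 10.1% higher. At a threshold of 1 on the log2 scale, 3 genes were lower with the passenger strand and 5 higher, against 12.9% and 10.3% of protein-coding genes, and 5 were lower with the guide strand and 2 higher, against 2.36% and 1.85%. A setting with normexp background correction, described below, gave 4 lower and 4 higher with the passenger strand, against 17.7% and 9.83% of protein-coding genes. It gave 5 lower and 2 higher with the guide strand, against 4.05% and 3.46%. Both comparisons use the same mock array, so their values are set side by side and are not independent of each other.

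**Figure D2:**
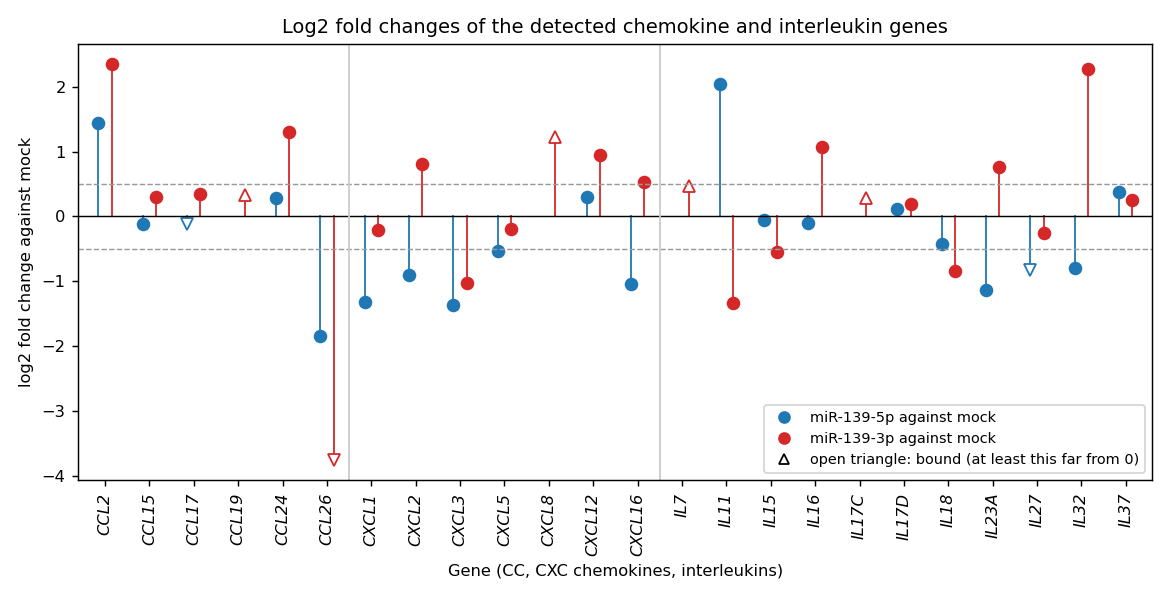
Log2 fold change of the 24 genes against mock, with *miR-139-3p* in red and *miR-139-5p* in blue, points on stems drawn from 0, open triangles as bounds for genes not well above background on 1 of the arrays compared, and dashed lines at 0.5 in either direction. *CCL2* lies above the upper line with both strands, at 2.35 and 1.45, *IL32* lies above it with the passenger strand (2.27) and below the lower line with the guide strand (-0.79), and *IL11* is the reverse (-1.34 and 2.05).

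Among the CC chemokines, *CCL2*, which draws monocytes through *CCR2*, was higher with both strands. The *CCL2* probe gave a signal of 121.7 in mock, 315.1 with the guide strand and 538.1 with the passenger strand. These are log2 fold changes of 1.45 (2.72-fold) with the guide strand and 2.35 (5.11-fold) with the passenger strand. The probe of *CCL2* is printed on 10 spots of each array, of which 8 were kept on the mock array. Relative to the 75th percentile of the array, the log2 signal was 0.38 ± 0.05 (SD over 8 spots) in mock, 1.83 ± 0.10 (SD over 10 spots) with the guide strand and 2.73 ± 0.06 (SD over 10 spots) with the passenger strand. The spots of the 3 arrays did not overlap, with signals of 117.2 to 130.5, 289.1 to 370.2 and 501.2 to 563.4 in that order. Spots of one array share 1 RNA sample, so this spread is technical.

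**Figure D3:**
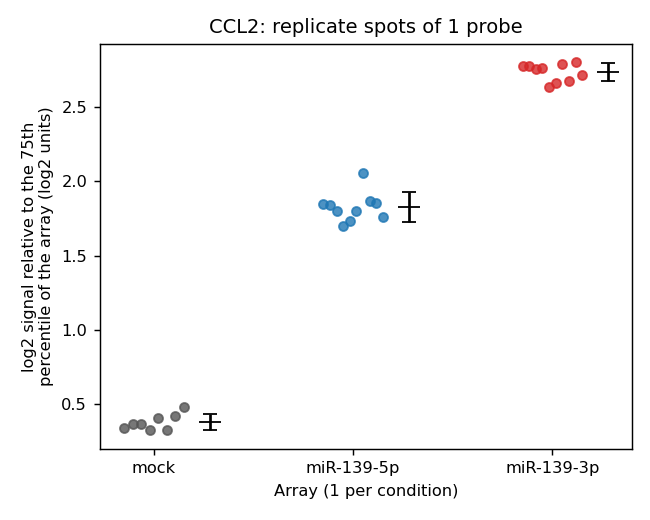
Log2 signal relative to the 75th percentile of the array for each kept spot of the *CCL2* probe on the arrays for mock, guide strand (*miR-139-5p*) and passenger strand (*miR-139-3p*), where points are single spots and the mark with whiskers beside them is their mean and SD. The means of 0.38, 1.83 and 2.73 stand apart by more than the spread of spots on any array.

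*CCL24* and *CCL26*, the eotaxins that attract eosinophils through *CCR3*, are direct neighbours on chromosome 7 in the RefSeq order of genes, and one was higher and the other lower with the passenger strand. The signal of *CCL24* was 465.9 in mock, 536.9 with the guide strand and 997.9 with the passenger strand, which gave log2 fold changes of 0.28 and 1.31 (2.47-fold). The signal of *CCL26* was 67.7 in mock, 18.0 with the guide strand and 2.97 with the passenger strand, the last not well above background. *CCL26* was thus lower by 1.84 on the log2 scale with the guide strand (27.9% of the mock level) and at least 13.6-fold lower with the passenger strand, the lowest value of the 24 genes in either comparison. An alternative setting, called normexp background correction here, adds an offset of 50 to every signal and so draws dim probes together. It also puts quantile normalization in place of the percentile scaling, so these changes cannot be told apart in its values. With this setting, the log2 fold change of *CCL26* with the guide strand was -0.68 and its bound with the passenger strand was -1.02.

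The 3 other CC chemokines were dim. *CCL15*, a ligand of *CCR1*, had signals of 13.6, 11.9 and 14.5 on the mock, guide-strand and passenger-strand arrays and stayed within 0.5 in both comparisons. *CCL17*, a ligand of *CCR4* on T cells, had signals of 6.18, 5.39 and 6.76 and was not well above background with the guide strand. *CCL19*, which guides lymphocytes through *CCR7*, was well above background on the passenger-strand array alone, with signals of 4.30, 3.73 and 5.26, and its bound was 0.33 on the log2 scale, so that it was higher by at least that much.

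The CXC chemokines that attract neutrophils were lower with the guide strand where they could be measured, while their values with the passenger strand went both ways. *CXCL1* had 2 probes, with signals of 354.1 and 134.0 in mock, 137.4 and 49.6 with the guide strand, and 215.3 and 124.0 with the passenger strand. With the guide strand the mean log2 fold change of *CXCL1* was -1.33 (SD between probes 0.05), which is 39.9% of the mock level. With the passenger strand its probes differed, at -0.51 for the brighter and 0.10 for the dimmer, a mean of -0.21 (SD 0.43).

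*CXCL2* also had 2 probes, with signals of 396.6 and 234.5 in mock, 212.1 and 114.0 with the guide strand, and 661.1 and 321.0 with the passenger strand. Both of its probes were below mock with the guide strand, at a mean of -0.90 (SD 0.10), and above mock with the passenger strand, at a mean of 0.80 (SD 0.20). *CXCL3*, by contrast, was lower in both comparisons: its signal of 89.5 in mock was 32.9 with the guide strand and 37.8 with the passenger strand, log2 fold changes of -1.37 and -1.03. The transcripts of *CXCL1*, *CXCL2* and *CXCL3* are close copies of each other, and how far their probes share signal was not tested, so the split between them is uncertain.

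*CXCL5* was the brightest of the 24 genes, with signals of 2396 in mock, 1579 with the guide strand and 1822 with the passenger strand. Its log2 fold changes were -0.53 and -0.19, so with the guide strand it lay just past the threshold, and when arrays were scaled to the E1A spike-in probes that value was -0.41. *CXCL8*, the prototype of this class, was dim throughout. Its signals were 3.22 in mock, 1.22 with the guide strand and 9.75 with the passenger strand, the last alone being well above background, which made it at least 2.34-fold higher with the passenger strand. After normexp background correction its bound was 0.07 on the log2 scale.

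*CXCL16* and *CXCL12* bind other receptors. *CXCL16*, a transmembrane chemokine and ligand of *CXCR6*, had signals of 94.4 in mock, 43.4 with the guide strand and 118.3 with the passenger strand, log2 fold changes of -1.05 and 0.53. The second value was 0.33 with no scaling between arrays. *CXCL12*, the ligand of *CXCR4*, had 4 probes, of which 1 was well above background on all 3 arrays and another, with a signal of 6.71, on the passenger-strand array alone. The first had signals of 8.77, 10.3 and 14.6 on the mock, guide-strand and passenger-strand arrays and log2 fold changes of 0.31 and 0.94. That of 0.94 was 0.08 after normexp background correction. With the guide strand, 5 of the 6 CXC chemokines with a value were thus lower by over 0.5 and *CXCL12* was within it, beside 12.2% of protein-coding genes lower. After normexp background correction, the guide-strand values of *CXCL1*, *CXCL2*, *CXCL3* and *CXCL16* were -0.88, -0.65, -0.69 and -0.51, while *CXCL5* (-0.47) was within 0.5. The value of *CXCL3* with the passenger strand was then -0.65.

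*CXCL5*, *CXCL3* and *CXCL2* follow each other directly in the RefSeq order of genes on chromosome 4, and the promoters of the 4 genes *CXCL1*, *CXCL2*, *CXCL3* and *CXCL5* held the same match to the κB consensus, the letters that NF-κB dimers bind. Promoters were 250 bases before to 50 after the gene's start, both strands were searched, and matches on opposite strands of the near-palindromic motif overlap. In RefSeq, 16 of the 24 genes had a promoter sequence, and 7 of these 16 held a match (*CXCL1*, *CXCL2*, *CXCL3*, *CXCL5*, *IL17D*, *IL23A* and *IL32*). Of all 27305 genes with a promoter, 7.09% held one. The matches are shown in capitals with 10 bases on each side, because genes that share the motif differed in direction in these data. They lie at chr4:73869304-73869333 (plus strand) for *CXCL1*, chr4:74099254-74099283 (minus) for *CXCL2*, chr4:74038749-74038778 (minus) for *CXCL3*, chr4:73998749-73998778 (minus) for *CXCL5*, chr16:3065294-3065323 (plus) for *IL32* and chr12:56338779-56338808 (plus) for *IL23A*, all in GRCh38.p14.
CXCL1: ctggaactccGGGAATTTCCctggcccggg
CXCL2: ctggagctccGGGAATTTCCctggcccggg
CXCL3: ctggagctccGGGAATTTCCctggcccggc
CXCL5: catgagttcaGGGAATTTCCccagcatccc
IL32: cctgtactcaGGGAGTTTCCccagccagct
IL23A: gatgcagggaGGGGAATCCCacctgctgtg

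These are matches of letters and not measured binding. With the passenger strand the genes shown were lower (*CXCL3*), higher (*CXCL2*, *IL32*, *IL23A*) or within 0.5 (*CXCL1*, *CXCL5*), and with the guide strand these 6 were lower by over 0.5. *IL17D*, the other gene with a match, was within 0.5 with both strands (0.19 and 0.12). After normexp background correction the guide-strand values of *CXCL5* (-0.47), *IL32* (-0.21) and *IL23A* (-0.23) were within 0.5 too. *CCL2*, *CCL17*, *CXCL16*, *IL7*, *IL15*, *IL17C*, *IL18* and *IL27* had no promoter entry.

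Among the interleukins, *IL11* went furthest in opposite directions. *IL11*, a cytokine of the *IL6* family that signals through *IL11RA* and the shared subunit *IL6ST*, had signals of 280.4 in mock, 1100 with the guide strand and 96.2 with the passenger strand. This was 2.05 higher on the log2 scale (4.13-fold) with the guide strand and 1.34 lower (39.6% of the mock level) with the passenger strand. The direction and the side of the threshold were the same in both comparisons under the 10 settings that gave a value, which ran from 1.67 to 2.16 and from -1.54 to -1.05. Some of these settings could not move it. *IL11* had 1 probe on 1 spot of each array, well above background and never an outlier, so the filters, the probe choice and the outliers had no effect. The promoter of *IL11* held no match to the κB consensus but held the AP-1 motif TGANTCA, as did 5 of the 16 genes with a promoter (*CCL24*, *CXCL8*, *IL11*, *IL17D* and *IL23A*) and 9.37% of all genes. It is shown in capitals, from chr19:55370542-55370570 on the minus strand of GRCh38.p14, since this gene had the widest span among the 24 between the 2 transfections in which all arrays were measured.
IL11: ggcagggagggTGAGTCAggatgtgtcag

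*IL32*, a cytokine made by lymphocytes and epithelial cells, was higher with the passenger strand and lower with the guide strand. Its 2 probes had signals of 50.5 and 22.9 in mock, 29.0 and 12.09 with the guide strand, and 216.5 and 93.1 with the passenger strand. The mean log2 fold change was 2.27 (4.82-fold, SD between probes 0.05) with the passenger strand and -0.79 (SD 0.08) with the guide strand. After normexp background correction these were 1.22 and -0.21.

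*IL18* and *IL15* were among the brighter interleukins and were both lower with the passenger strand. *IL18*, which is cleaved by *CASP1* before release and drives interferon gamma, had signals of 518.2 in mock, 365.0 with the guide strand and 249.8 with the passenger strand, log2 fold changes of -0.43 and -0.84. *IL15*, which maintains natural killer and memory T cells, had signals of 462.4, 420.8 and 274.0 in that order, log2 fold changes of -0.06 and -0.55. The last value was -0.37 after normexp background correction.

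*IL23A* and *IL27* encode subunits of heterodimers, the first pairing with *IL12B* and the second with *EBI3*. *IL23A* had signals of 24.1 in mock, 10.5 with the guide strand and 35.5 with the passenger strand, log2 fold changes of -1.13 and 0.76, and after normexp background correction of -0.23 and 0.30. *IL27* had signals of 9.51, 4.69 and 6.87, was not well above background with the guide strand, and had a bound of -0.82 there (-0.12 after normexp background correction) and a log2 fold change of -0.26 with the passenger strand, which was -0.79 after quantile normalization and -0.80 in the deposited log2 values. *IL12B* was well above background on no array.

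*IL16*, a chemoattractant for cells that carry CD4, had 3 probes, of which 1 was well above background, with signals of 36.8 in mock, 32.4 with the guide strand and 67.1 with the passenger strand. Its log2 fold change was 1.08 with the passenger strand and -0.11 with the guide strand, and the first was 0.24 where the dim probes were averaged in. The other interleukins were near background. *IL17D* had signals of 12.3, 12.7 and 12.105 on the mock, guide-strand and passenger-strand arrays, *IL37*, an anti-inflammatory member of the *IL1* family, had 6.31, 7.81 and 6.51, and both stayed within 0.5. *IL7*, a growth factor of lymphocytes, had signals of 2.33, 1.95 and 5.78, and *IL17C*, an epithelial member of the IL17 family, had 1.11, 1.28 and 5.08. The last 2 genes passed background on the passenger-strand array alone, and their bounds were 0.47 and 0.29 on the log2 scale, below the threshold but with no upper limit.

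**Figure D4:**
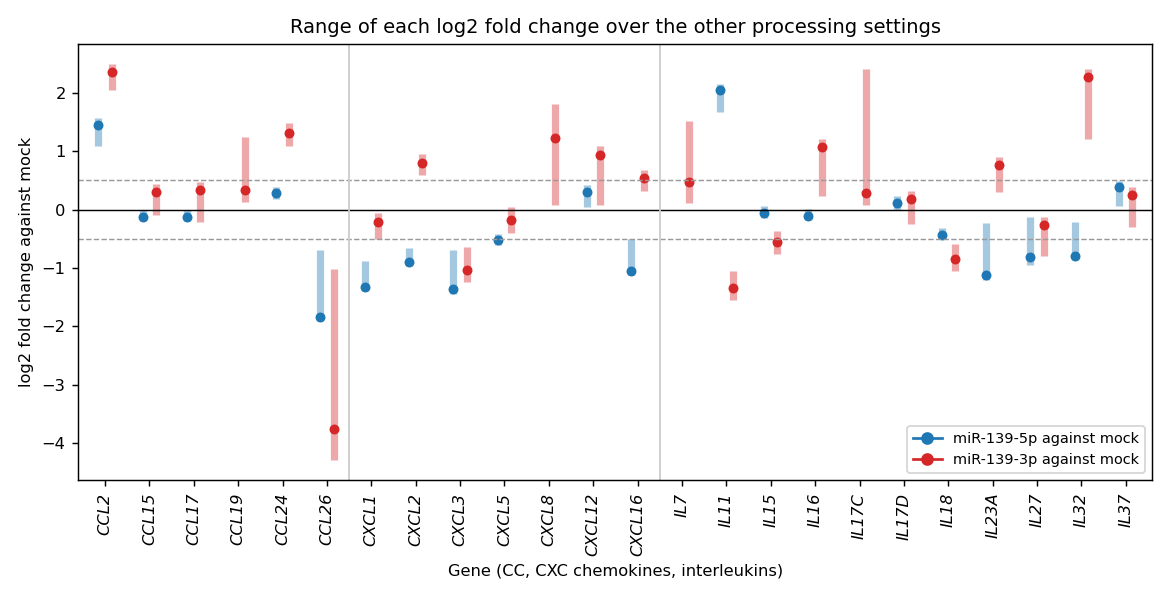
Log2 fold change of each of the 24 genes under the settings of processing, with *miR-139-3p* (passenger strand, red) and *miR-139-5p* (guide strand, blue), where the point is the value as reported and the line runs from the lowest to the highest value over the settings that gave one. *CCL2* runs from 2.05 to 2.50 with the passenger strand and from 1.096 to 1.56 with the guide strand, and for *CCL26* with the passenger strand the line runs from -4.30 to -1.02.

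Genes that receive, limit or control these ligands were taken as 6 lists and are given by their counts, their median and the values of genes past the threshold. The medians are read beside those of all protein-coding genes with a value, which were -0.13 with the passenger strand and -0.01 with the guide strand, and the counts beside the shares given above. Counts after normexp background correction are read beside the shares of that setting. These were 17.7% lower and 9.83% higher with the passenger strand, and 4.05% and 3.46% with the guide strand. Of 22 chemokine receptors, 9 were well above background on at least 1 array, and *CCR2*, *CCR3*, *CXCR1* and *CXCR2*, the receptors of *CCL2*, of the eotaxins and of the neutrophil chemokines, were not among them. With the passenger strand, 4 of 8 chemokine receptors with a value were higher and 1 was lower, with a median of 0.23. Among the higher ones were *CCR6* (1.19), *XCR1* (1.16) and *ACKR1* (at least 0.72), and the lower one was *ACKR3*, a scavenger of *CXCL12*, at -1.45. In the guide-strand comparison, *CXCR4* was higher (0.52), *CCR10* (-1.16) and *ACKR3* (-0.74) were lower, and the median over 7 genes was 0.31. Under normexp background correction, *CCR6* (0.85) was the 1 chemokine receptor past the threshold with the passenger strand, and none was with the guide strand.

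Of 38 interleukin receptor genes on the array, 28 were well above background on at least 1 array. With the passenger strand, 10 of 28 were higher and 8 lower, with a median of -0.11. The highest values in this list were those of *IL21R* (at least 1.58), *IL17RD* (1.43), *IL2RG*, the common gamma chain (1.39), *IL1R2*, the decoy receptor of *IL1* (1.25), and *IL18RAP* (1.21). The lowest were those of *LIFR* (a bound of -1.21), *IL1RAP* (-0.998, SD between probes 0.94), *IL6R* (-0.83, SD 0.70), *IL22RA1* (-0.77) and *OSMR* (-0.76). *IL11RA*, the receptor of *IL11*, was higher by 1.03. In the guide-strand comparison, 6 of 26 were higher and 2 lower, with a median of 0.08. The higher ones were *IL1R2* (1.58), *IL1RAP* (1.19, SD 0.91), *IL6R* (1.14, SD 0.93), *IL1R1* (0.88), *LIFR* (0.86) and *IL6ST*, the signal-transducing subunit for *IL6* and *IL11* (0.59). The lower ones were *OSMR* (-1.02, SD 1.17) and *IL9R* (-0.69). The probes of *IL1RAP*, *IL6R* and *OSMR* disagreed, as their SDs show. Under normexp background correction, 3 interleukin receptors were higher and none lower with the passenger strand, where *IL21R* had a bound of 0.12, *LIFR* a bound of -0.21, *IL1R2* a value of 0.16 and *IL17RD* of 0.40, while *IL2RG* (0.63) and *IL11RA* (0.66) were past the threshold. With the guide strand *IL1RAP* (0.53) alone was.

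Antagonists, adaptors and processing enzymes of the *IL1* family went both ways with the passenger strand, where 5 of 9 were higher and 4 lower, with a median of 0.63. *IRAK2* (1.86), *IL1RN*, the receptor antagonist of *IL1* (1.26), the inflammasome adaptor *PYCARD* (1.20), *CASP1* (at least 0.81) and *IL18BP*, which binds and blocks *IL18* (0.63), were higher. The adaptor *MYD88* (-0.70), the kinases *IRAK1* (-0.63) and *IRAK4* (-0.55) and the pore-forming *GSDMD* (-0.62) were lower. Against mock, 4 of 8 were higher with the guide strand and none was lower by over 0.5, with a median of 0.25. These were *IRAK2* (1.08), *IRAK4* (0.66), *IL1RN* (0.54) and *IL18BP* (0.52). Normexp background correction gave the following calls: *IRAK2* (1.48) and *PYCARD* (1.18) were higher and *MYD88* (-0.60) was lower with the passenger strand, and *IRAK2* (0.75) was higher with the guide strand.

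The NF-κB list of 23 genes, all well above background on at least 1 array, holds the subunits of NF-κB, their inhibitors and genes known as NF-κB targets. Of 22 with a value, 8 were higher and 4 lower with the passenger strand, with a median of -0.10. *TNFAIP3*, a deubiquitinase that limits NF-κB, had signals of 10.1 in mock, 20.9 with the guide strand and 79.2 with the passenger strand, log2 fold changes of 1.12 and 3.18. *BIRC3* was higher by 2.88, *NFKB2* by 2.83, *RELB*, the partner of *NFKB2* in the non-canonical pathway, by 1.78, and *NFKBIA*, the inhibitor IκBα, by 1.60. The lower genes were *BCL3* (-1.66), *TNIP1* (-1.23), *ZC3H12A*, a nuclease that degrades cytokine mRNA (-1.14), and *NFKBIB* (-0.53). Of 23 genes, 6 were higher and 1 lower with the guide strand, with a median of 0.10. Among the higher ones were *BIRC3* (1.48), *NFKB2* (0.94), *CYLD* (0.83) and *TRAF2* (0.69), and the lower one was *TRAF1* (-0.64). In the values after normexp background correction, 7 were higher and 3 lower with the passenger strand, against 9.83% and 17.7% of protein-coding genes. With the guide strand 4 were higher and none lower, against 3.46% and 4.05%. *TNFAIP3* was then at 1.15 with the passenger strand and at 0.28 with the guide strand, within the threshold. *CYLD* with the guide strand, at 0.29, was within it too.

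Of 16 other cytokine genes, 11 were well above background on at least 1 array, and with the passenger strand 5 of these were higher and 3 lower, with a median of 0.31. *LTB* (at least 2.36), *OSM* (at least 1.28) and *TNFSF13B* (at least 0.96) were not well above background in mock and were higher, and *LIF* was higher by 0.85. *EBI3*, the partner of *IL27*, was lower (-1.31), as were *VEGFA* (-1.02) and *CSF1* (-0.95, SD between probes 0.93). In the guide-strand comparison, 3 of 8 were lower and none was higher by over 0.5, with a median of -0.08. Among these were *EBI3* (-0.61) and *CSF1* (-0.56, SD 0.87). Normexp background correction left *LIF* (0.55) higher and *VEGFA* (-0.57) lower with the passenger strand, and none was past the threshold with the guide strand. The bounds of *LTB*, *OSM* and *TNFSF13B* were then 0.41, 0.18 and 0.05.

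The interferon response list had 18 of 26 genes well above background on at least 1 array. Against mock, 3 were higher and 3 lower with the passenger strand, with a median of -0.06. *MX1* (1.17), *IFNL2* (0.93) and *IFIT2* (0.71) were higher, and the 2′-5′-oligoadenylate synthetase family members *OASL* (a bound of -2.94), *OAS1* (-1.53) and *OAS3* (-1.25) were lower. Against mock, 4 were higher and 3 lower with the guide strand, with a median of 0.03. *OAS1* (0.82), *ISG20* (0.71), *MX1* (0.59) and *IFIT5* (0.56) were higher, and *OASL* (-1.64) and *IFIT1* (-0.53) were among the lower ones. Of these genes, none was higher after normexp background correction and 3 were lower with the passenger strand, where *MX1* was at 0.32, *IFNL2* at 0.16 and *IFIT2* at 0.07, and 1 was higher and 1 lower with the guide strand.

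**Figure D5:**
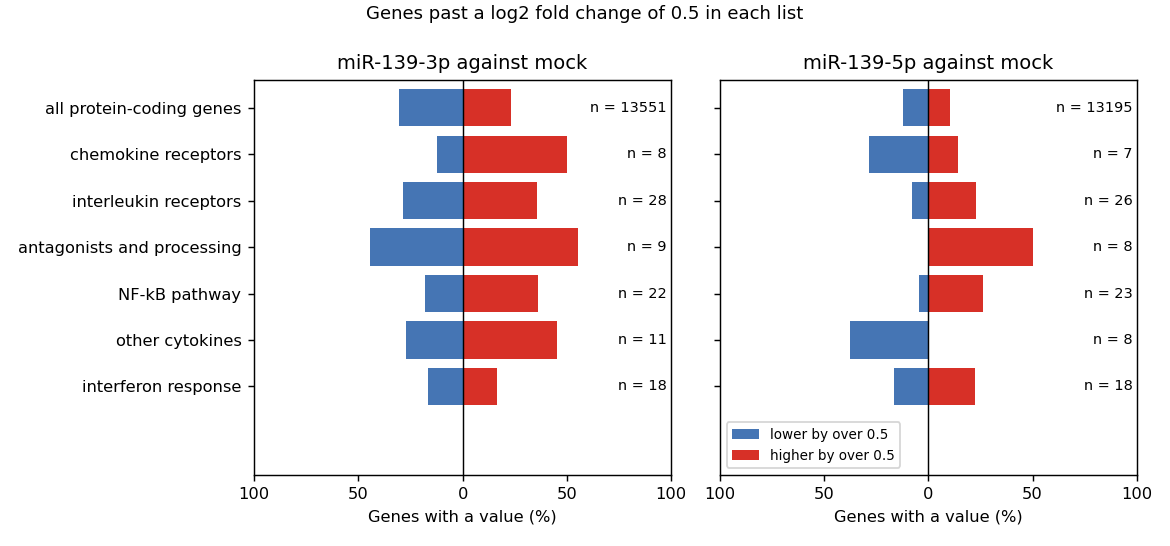
Percentage of genes with a value that were lower (blue, to the left) or higher (red, to the right) than mock by over 0.5 on the log2 scale, for all protein-coding genes and for 6 gene lists, with *miR-139-3p* (passenger strand, left panel) and *miR-139-5p* (guide strand, right panel). Numbers of genes with a value stand at the right, and the lists are small beside the 13551 and 13195 genes in the first row.

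All 6 epithelial markers (*EPCAM*, *CDH1*, *KRT7*, *KRT8*, *KRT18* and *KRT19*) were well above background on every array, with summed signals of 147792 in mock, 103577 with the guide strand and 79150 with the passenger strand. *KRT18*, *KRT7* and *KRT8* carry most of these sums and were lower with the passenger strand (log2 fold changes of -0.84, -1.097 and -0.74), while *EPCAM* was higher (0.97) and *CDH1* (0.36) and *KRT19* (0.18) were within 0.5. Of the 6 markers, 4 were lower and none higher with the guide strand (*KRT8* at -0.85, *KRT18* at -0.77, *CDH1* at -0.54 and *KRT19* at -0.52), with a median of -0.53. Of 6 leukocyte markers on the array, 4 were well above background on at least 1 array, with summed signals of 335, 353 and 142 in that order. *CD14* carries most of these sums, with signals of 292, 304 and 64.0 (a log2 fold change of -1.98 with the passenger strand), *PTPRC* had 10.3, 10.2 and 20.1 (1.26) and *ITGAM* 26.2, 32.5 and 48.5 (1.098), while *HLA-DRA* was below background throughout. Of 5 fibroblast markers *COL1A1* alone was well above background, with signals of 40.1, 101 and 22.7, and of 4 endothelial markers *VWF* and *CDH5* were, with sums over the list of 23.8, 20.1 and 38.6. The part of these values in the chemokine and interleukin results was not tested.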

How the data were processed

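RNA of A549 cells was read on 3 Agilent arrays, 1 each for mock transfection, the guide strand *miR-139-5p* and the passenger strand, *miR-139-3p*. The authors deposited spot intensity values, read by Feature Extraction 12.1.1.1 with background subtraction and no scaling between arrays, and 1 log2 value table. The deposited log2 values matched, in a comparison with the scanner intensities, the quantile-normalised log2 signals (median absolute difference 0.003), with a median of 2.21 in each column. They were used as an alternative.

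The processed signal was divided by the 75th percentile over non-control spots of its array and put on the log2 scale with Python 3.11.15. Spots marked as outliers were left out, 614, 935 and 1526 on the mock, guide-strand and passenger-strand arrays, and spots of a probe were averaged. A probe counted as well above background if the scanner software marked 50% or more of its kept spots so. Probes that passed on both arrays compared were averaged per gene. Where no probe passed on both, the bound of its brightest probe is given, with the lowest signal well above background on the dim array (4.82, 5.12 and 4.32) or the probe's own, whichever was higher, and written as "at least". Genes were named through RefSeq accessions and the annotation of GRCh38.p14, which matched 24751 of 25277 mRNA probes. The arrays were designed on another build, so the coordinates printed are those of the RefSeq sequences.

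The threshold of 0.5 on the log2 scale was read from the picture of the study's flow chart, which sets it for genes lower with the passenger strand, and was used here in both directions and for both strands. All genes above background in the set are named, and of each list at most 5 genes in each direction past the threshold, except that *IL6ST*, *IL11RA* and some receptors below background were added because they pair with a ligand described. Some genes of the lists are counted but not reported by name here. The genes and lists were chosen with earlier results of these data known, and the lists were compiled from general knowledge. No test was made, since each condition had 1 array. The alternatives, 11 in number, changed the background correction (normexp of limma 3.58.1), the scaling, the filters, the probe taken, the values or the threshold. The normexp values were also quantile-normalised, in place of the percentile scaling.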

Additional observations from a re-analysis of the deposited data

How the results depend on the processing

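No paired analysis was possible because each condition had 1 array and no replicate. Over 10 alternatives for the single values, those of the chemokine and interleukin genes moved by less than the technical spread in 373 cases and by more in 49, of which 29 were towards 0, 10 away from 0 and 10 across 0. Part of the first count was fixed in advance. For a gene measured by its only probe with no outlier spot, the settings for filters, probe and outliers return the same value or none. None that was past the threshold changed sign. Across 0 went only genes within the threshold (*CCL15*, *CCL17*, *CXCL5*, *IL17D* and *IL37* with the passenger strand, *IL15* and *IL16* with the guide strand). Among genes of the lists, *CSF1* with the guide strand turned to 0.050 when its brightest probe was taken.

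Normexp background correction was run on median spot signals, since no mean spot signal was used here, and its offset draws dim probes together by construction. Quantile normalization followed it in place of the percentile scaling, and the part of each was not tested. This setting left 4 chemokine and interleukin genes lower and 4 higher with the passenger strand. With the guide strand 5 were lower and 2 higher. Of protein-coding genes, 2381 were lower and 1322 higher with the passenger strand (17.7% and 9.83%), and 525 lower and 449 higher with the guide strand (4.05% and 3.46%). Over the 6 lists, 8 were lower and 14 higher with the passenger strand, and 1 lower and 7 higher with the guide strand. Scaling to the E1A spike-in probes gave 1058 protein-coding genes lower and 2110 higher with the guide strand. With no filter on dim probes, 15 of 74 chemokine and interleukin genes were lower and 21 higher with the passenger strand (25.0% and 23.2% of protein-coding genes), 19 of 75 were lower and 9 higher with the guide strand (12.2% and 11.7%), 2110 protein-coding genes were higher with the guide strand and 17 list genes were lower with it. At a threshold of 1, 3 chemokine and interleukin genes were lower and 5 higher with the passenger strand and 5 were lower with the guide strand. The protein-coding genes were then 1754 lower and 1396 higher with the passenger strand and 312 and 244 with the guide strand, and the list genes 10 and 23 with the passenger strand and 3 and 6 with the guide strand. The cause of these shifts was not tested beyond the construction of the settings.

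The scaling moved the split of protein-coding calls. The percentage of called genes that were higher with the passenger strand was 43.0, against 28.8 with no scaling, 29.6 with E1A scaling and 53.2 with the percentile taken over probes above background on all arrays. With the guide strand it was 46.6, against 33.9 with no scaling and 66.6 with E1A scaling. The median log2 fold change of measured protein-coding genes with the passenger strand was -0.36 with no scaling and -0.35 with E1A scaling, in place of -0.15.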
